A study of Mus musculus with 8 samples.

Results

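Aminoacyl-tRNA synthetases are the enzymes that join each amino acid to its transfer RNA. Here 36 mouse synthetase genes were followed in macrophages treated with siRNAs directed at Y RNAs. The members were chosen by gene name: 20 genes for the enzymes of the cytosol and 16 nuclear genes for those of the mitochondrion. They came from 35080 distinct gene names with a probe on the array. Such a name can also belong to a probe that matched no RefSeq accession. Each gene was represented by its brightest probe over the 8 arrays. Expression had been measured with 1-colour Agilent arrays in bone marrow-derived macrophages, which are macrophages grown in culture from marrow precursors, of male C57BL/6J mice. The treated group was cells that received siRNAs aimed at the terminal loop of Y RNAs (4 arrays, called Y RNA siRNA below). Its control was cells transfected with a control siRNA (4 arrays). Both conditions were run on cells of 4 mice, so both groups share the strain, the sex, the culture of marrow cells into macrophages and the transfection itself. The sources used here do not give the age of the mice, the siRNA dose or the time of harvest. Y RNAs, short noncoding RNAs bound by the Ro60 protein, were not analysed here, so the knockdown itself was not checked.

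Each synthetase recognises its own transfer RNAs and amino acid, and the charged transfer RNA is then handed to the ribosome by an elongation factor. The enzymes fall into class I and class II by the fold of the catalytic domain. In mammals most of them exist as a separate pair of genes, one for the cytosol and one, usually written with the suffix 2, for the mitochondrion, while Gars and Kars serve both compartments. Several cytosolic enzymes sit in the multisynthetase complex, which is held together by the scaffold proteins Aimp1, Aimp2 and Eef1e1. Many cytosolic synthetase genes are targets of ATF4, the transcription factor of the amino acid response, and Wars, which charges tryptophan, is an interferon-induced gene.

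Each value is a log2 signal from which the 75th percentile of its own array was subtracted, and values are compared only within a probe. Of the 46 synthetase probes, 27 were the only probe of their gene and 19 belonged to the 9 genes with several. A gene entered the tests where 4 or more of the 8 arrays had its probe well above background, and 35 of the 36 synthetases passed, each of these on 8 of 8. The exception was Nars2, the mitochondrial asparagine enzyme, whose single probe was above background on 0 arrays and read between -6.73 and -6.49. The 75th percentile itself was 9.04 on both arrays of mouse 1 and 9.19 to 9.34 on the other 6. The share of spots above background ran from 48.7% to 50.7%, 0 spots were saturated, and the correlation between arrays was 0.989 to 0.997. RNA integrity numbers were 10 except for an 8 in control replicate 4. The arrays lay on 1 slide, with the Y RNA siRNA in slide columns 1 and 3 and the control in columns 2 and 4, and the effects of column and siRNA cannot be told apart. Slide row 1 held mice 1 and 2 and row 2 held mice 3 and 4. Within a row the arrays of a mouse lay side by side, so mouse and slide position cannot be told apart. Of the 13 macrophage markers 12 were above background, with Cd163 as the exception. In bulk RNA, fewer cells of a type and less RNA per cell cannot be told apart.

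No synthetase gene passed the test between cells with the Y RNA siRNA and cells with the control siRNA. In the limma fit over 19286 genes, 0 of 35 synthetases passed an adjusted p of 0.05, 0 had an unadjusted p under 0.05, and their adjusted p was 1 in each case. The background was 0% of all genes by the adjusted p and 3.35% (646 genes) by the unadjusted one. In the fit with the mouse as a block, the unadjusted share over all genes was 9.02%, and it was again 0 of 35 for the synthetases. Of the 35, 17 had a higher and 18 a lower signal with the Y RNA siRNA, while 53% of all genes were higher. With each array centred on its median instead, 25 were higher and 10 lower (16 of 20 cytosolic and 9 of 15 mitochondrial genes higher), beside 66.1% of all genes. The largest difference of any member was 1.14-fold, and 33 of 35 lay within 0.1 of 0 on the log2 scale.

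The intervals of the differences cover the spread between arrays at the probe used for each gene. They do not cover differences between probes of a gene, the slide column or the unchecked knockdown. For 33 of 35 synthetases (94.3%) the 95% interval of the fold change lay inside 1.5-fold in either direction, against 84.7% of all genes. The median standard error was 0.08 on the log2 scale for the synthetases and 0.10 for all genes. The 2 exceptions were Hars, the cytosolic histidine enzyme, with an interval of -0.75 to 0.73, and Mars2, the mitochondrial methionine enzyme, with -0.79 to 0.41. These intervals hold the spread between mice. With the mouse as a block, 34 of 35 (97.1%) lay inside 1.5-fold, against 90.5% of all genes. The interval of Hars was then -0.14 to 0.12, and that of Mars2, the exception, was -0.74 to 0.36.

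**Figure D1:**
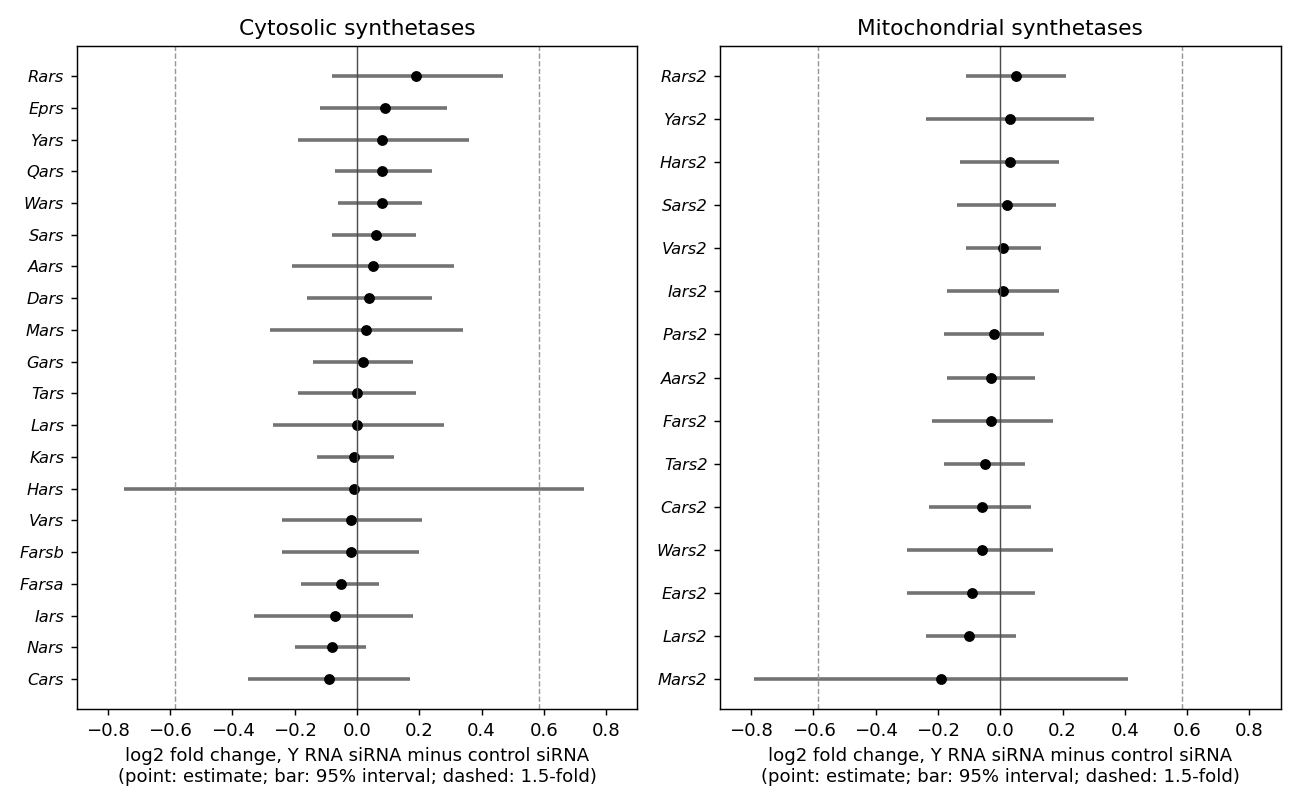
Differences of the 35 synthetase genes between Y RNA siRNA and control siRNA. Each point is the log2 fold change of 1 gene (horizontal axis, Y RNA siRNA minus control siRNA, 4 arrays each) with its 95% interval from the fit without the mouse block as a bar, for 20 cytosolic genes on the left and 15 mitochondrial genes on the right. All intervals cross 0, and those of Hars and Mars2 cross the dashed 1.5-fold lines.

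Cytosolic and mitochondrial genes both centred close to 0. Among the 20 cytosolic genes, 11 were higher and 9 lower with the Y RNA siRNA, with a median log2 fold change of 0.01 and a range of -0.09 to 0.19. Among the 15 mitochondrial genes, 6 were higher and 9 lower, with a median of -0.03 and a range of -0.19 to 0.05. The median over all genes was 0.01. With arrays centred on the median, the medians were 0.04386 (cytosolic) and 0.003178 (mitochondrial), beside 0.036 for all genes. Over the 4 mice the mean difference had an SD of 0.068 for the cytosolic and 0.037 for the mitochondrial genes, and the difference between the compartments was not tested. By mouse, the mean difference of the cytosolic genes was 0.07, -0.08, 0.04 and 0.04 in mice 1 to 4, and that of the mitochondrial genes was -0.03, -0.08, 0.01 and -0.03. Mouse 2 thus gave a negative mean for both compartments. Of the 8 synthetases of the multisynthetase complex, 6 were higher, with a median of 0.03. Class I enzymes were higher in 10 of 18 genes and class II enzymes in 6 of 16. Eprs, which carries a class I and a class II enzyme in one protein, is counted in neither.

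The arginine enzyme Rars, a subunit of the multisynthetase complex, had the highest fold change of the members. Its signal was -0.40, -0.31, -0.12 and 0.06 with the Y RNA siRNA (replicates 1 to 4), against -0.60, -0.30, -0.24 and -0.39 with the control siRNA. The Y RNA siRNA arrays of mice 1, 3 and 4 were the higher of their pairs and that of mouse 2 was not, so the groups overlapped. The log2 fold change was 0.19 ± 0.12 (SE, n = 4 each, limma's unadjusted p = 0.144). The probe read here, shown because it carries the highest fold change, lies on the minus strand at chr11:35633429-35634605 of mm9 and spans 1177 bases of the genome with 60 bases of its own, so it crosses an intron.
Rars probe: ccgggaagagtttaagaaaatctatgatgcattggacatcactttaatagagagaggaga

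Mars2 had the lowest fold change of the members. Its values were -2.95, -2.71, -1.77 and -2.69 with the Y RNA siRNA, against -2.59, -1.96, -2.29 and -2.51 with the control siRNA. The highest array of all 8 and the lowest were both Y RNA siRNA arrays, and the log2 fold change of -0.19 ± 0.26 (SE, n = 4 each) was smaller than its error. The probe, on the plus strand at chr1:55295642-55295701 of mm9, is shown because that spread rests on it alone.
Mars2 probe: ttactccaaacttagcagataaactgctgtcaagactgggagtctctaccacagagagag

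Of the 35 synthetases, only Wars had the same sign of difference in the 4 mice, while 19% of all genes did. Wars read 4.23, 4.24, 4.32 and 4.32 with the Y RNA siRNA, against 4.09, 4.23, 4.29 and 4.19 with the control siRNA. The pair of mouse 2 differed by 0.01 and the groups overlapped, as did those of each other synthetase tested (0 of 35 not overlapping, against 2.48% of all genes). The log2 fold change of Wars was 0.08 ± 0.06 (SE, n = 4 each, limma's unadjusted p = 0.228), and its other probe, also above background on 8 arrays, gave 0.04. Wars2, the mitochondrial tryptophan enzyme, read -0.85, -0.70, -1.04 and -0.66 with the Y RNA siRNA, against -0.71, -0.91, -0.76 and -0.62 with the control siRNA. Its log2 fold change was -0.06 ± 0.10 (SE, n = 4 each).

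The other cytosolic genes with the lowest unadjusted p were Nars, Qars and Farsa. Nars, the asparagine enzyme, read 2.96, 3.01, 3.01 and 2.95 with the Y RNA siRNA, against 3.04, 3.12, 3.00 and 3.09 with the control siRNA. Its log2 fold change was -0.08 ± 0.05 (SE, n = 4 each, limma's unadjusted p = 0.146), and in mouse 3 the order was turned. Qars, the glutamine enzyme and a member of the complex, read 5.54, 5.50, 5.37 and 5.45 with the Y RNA siRNA, against 5.40, 5.30, 5.31 and 5.51 with the control siRNA. That is a log2 fold change of 0.08 ± 0.07, with mouse 4 as the exception. Farsa, the alpha subunit of the phenylalanine enzyme, gave -0.05 ± 0.05, and Farsb, its beta subunit, gave -0.02 ± 0.10. Eprs read -0.57, -0.60, -0.30 and -0.54 with the Y RNA siRNA, against -0.69, -0.43, -0.55 and -0.69 with the control siRNA, a log2 fold change of 0.09 ± 0.09. It was higher with the Y RNA siRNA in 3 of 4 mice.

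The 2 genes whose enzymes serve both compartments had differences near 0. Gars, the glycine enzyme, read 5.72, 5.68, 5.88 and 5.74 with the Y RNA siRNA, against 5.69, 5.71, 5.87 and 5.66 with the control siRNA (log2 fold change 0.02 ± 0.07, SE). Kars, the lysine enzyme, read 4.40, 4.34, 4.40 and 4.32 with the Y RNA siRNA, against 4.27, 4.39, 4.40 and 4.42 with the control siRNA (-0.01 ± 0.05, SE). For Kars the 95% interval ran from -0.13 to 0.12 and for Gars from -0.14 to 0.18.

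Among the mitochondrial enzymes, Lars2 had the lowest unadjusted p. This leucine enzyme read 2.00, 2.04, 2.03 and 1.87 with the Y RNA siRNA, against 1.96, 2.11, 2.09 and 2.15 with the control siRNA (log2 fold change -0.10 ± 0.06, SE, limma's unadjusted p = 0.176). It was lower with the Y RNA siRNA in mice 2, 3 and 4 and not in mouse 1. Ears2, the glutamate enzyme, read -1.15, -0.97, -0.84 and -1.02 with the Y RNA siRNA, against -0.82, -0.92, -0.81 and -1.08 with the control siRNA. Its difference of -0.09 ± 0.09 came mostly from mouse 1. Cars2, for cysteine, gave -0.06 ± 0.07, and Tars2, for threonine, gave -0.05 ± 0.06.

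Other probes of the same genes did not settle the small signs. Among the 7 genes with at least 2 probes above background, the probes of Wars gave the same sign of the siRNA difference and those of Cars2, Farsa, Iars2, Tars2, Vars2 and Wars2 gave opposite signs. The widest pair was Vars2, the mitochondrial valine enzyme, at -0.43 and 0.01, and its dimmer probe read -1.44 in control replicate 2, against -2.86 to -2.26 on the other 7 arrays. A second case of 1 array standing apart was the dimmer probe of Pars2, the mitochondrial proline enzyme, which read -0.11 in Y RNA siRNA replicate 1 and -4.77 to -3.99 on the other 7 arrays. That probe was above background on 2 arrays and did not enter the tests. The brighter Pars2 probe read 1.21 to 1.47 over the 4 Y RNA siRNA arrays and 1.28 to 1.40 over the 4 control arrays. The dimmer probe is shown because of that single array, and lies on the plus strand at chr4:106326033-106326092 of mm9.
Pars2 dimmer probe: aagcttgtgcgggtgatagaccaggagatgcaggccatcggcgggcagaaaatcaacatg

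The 4 mice were compared next. The replicate numbers were taken as mice 1 to 4, since each Y RNA siRNA array correlated best with the control array of its own number. Arrays of the same group were not compared for this. The arrays of a number also lay side by side on the slide, so differences between mice cannot be told apart from slide position. A limma F test between mice, with the siRNA group in the fit, called 895 of 19286 genes (4.64%) at an adjusted p of 0.05, and 2 without both arrays of mouse 1. Among the synthetases it called 1 of 35, Hars (adjusted p = 0.0105), and 12 of 35 had an unadjusted p under 0.05, against 29.3% of all genes. The share called was 2.86% of the synthetases, beside 4.64% of all genes.

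Hars read 2.02, 2.07, 2.72 and 1.40 in mice 1 to 4 with the Y RNA siRNA, against 1.91, 2.15, 2.70 and 1.49 with the control siRNA. Both arrays of mouse 3 were the highest and both of mouse 4 the lowest. The means of the mice were 1.96, 2.11, 2.71 and 1.45, a range of 1.26, and the signal of mouse 3 was 2.39-fold that of mouse 4. The largest gap between the 2 arrays of a mouse was 0.11. Only 2.62% of all genes had a wider range between mice, and by p Hars was 151st of the 895 called genes. The call did not hold without Y RNA siRNA replicate 3 (adjusted p = 0.0892) or 4 (0.0573), nor without control replicate 3 (0.0843) or 4 (0.059). It also did not hold without both arrays of mouse 1 (0.158), mouse 3 (0.107) or mouse 4 (0.0555).

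The range of Hars was not shared by most genes beside it. Its probe lies at chr18:36926985-36927794 of mm9 and crosses an intron, and Hars2, the mitochondrial histidine enzyme, lies in the same stretch with its probe at chr18:36951466-36951525. Hars2 read 2.68, 2.72, 2.51 and 2.68 with the Y RNA siRNA, against 2.74, 2.56, 2.56 and 2.61 with the control siRNA. Its range between mice was 0.18 (limma adjusted p = 0.398), and mouse 3 was the lowest. Of the 6 other genes with a probe above background in this stretch, Ndufa2, Ik, Wdr55, Dnd1 and Zmat2 had ranges of 0.04 to 0.39. Tmco6 was the exception, with means of -0.34, -0.68, -0.29 and -1.36 in mice 1 to 4 and a range of 1.07. Mouse 4 was the lowest for Tmco6 as for Hars.

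**Figure D2:**
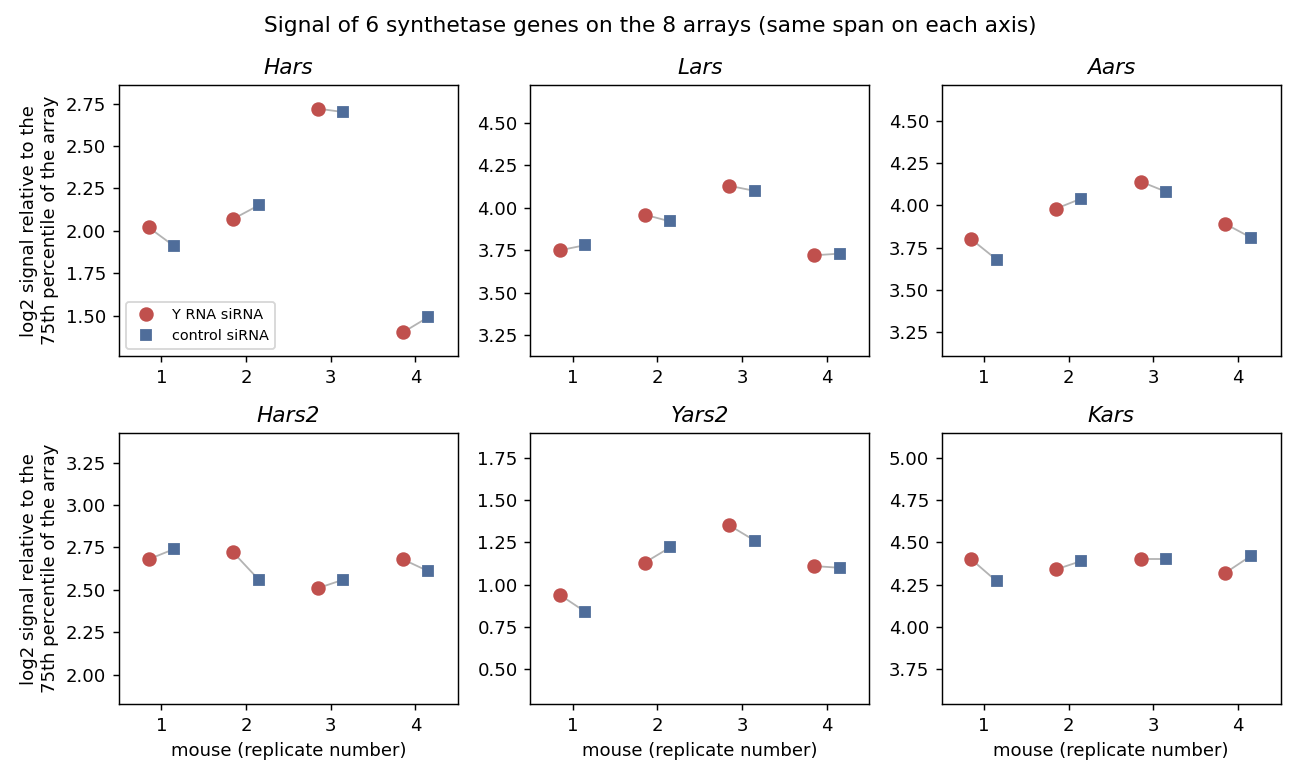
Signal of Hars, Lars, Aars, Hars2, Yars2 and Kars by mouse. The vertical axis is the log2 signal minus the 75th percentile of that array, with the same span in each panel, and the horizontal axis is the mouse; red circles are Y RNA siRNA arrays and blue squares control siRNA arrays, joined within a mouse. Hars runs from 1.40 in mouse 4 to 2.72 in mouse 3, while the 2 arrays of a mouse differ by at most 0.11.

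Apart from Hars, many synthetases followed one order of the mice, with mouse 3 at the top and mouse 1 at the bottom. Mouse 3 was the highest in 27 of 35 synthetases, against 27.2% of all genes, and mouse 1 was the lowest in 23 of 35, against 31.7% of all genes. Both held in 20 genes, of which 13 were cytosolic and 7 mitochondrial. The mean deviation of the cytosolic genes from the mean of the 4 mice was -0.10, 0.02, 0.14 and -0.06 in mice 1 to 4, and that of the mitochondrial genes was -0.06, 0.01, 0.06 and -0.01. These counts moved with the scaling: mouse 3 was the highest in 26 to 28 members and mouse 1 the lowest in 19 to 23 over 5 ways of scaling the arrays. Genes of one pathway are not independent of each other, and a count over them is a description of these 4 mice.

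After Hars, the 4 cytosolic genes with the lowest p between mice fell short of the threshold. Lars, the leucine enzyme and a member of the complex, read 3.75, 3.96, 4.13 and 3.72 with the Y RNA siRNA, against 3.78, 3.92, 4.10 and 3.73 with the control siRNA. Mouse 3 was the highest, mice 1 and 4 the lowest, and the range was 0.39 (limma adjusted p = 0.0519). Aars, the alanine enzyme, read 3.80, 3.98, 4.14 and 3.89 with the Y RNA siRNA, against 3.68, 4.04, 4.08 and 3.81 with the control siRNA (range of means 0.37, adjusted p = 0.0917). Farsb had a range of means of 0.32 (adjusted p = 0.0998), and Cars, the cysteine enzyme, had means of 3.83, 4.10, 4.21 and 4.10 in mice 1 to 4 (0.116). All 3 were lowest in mouse 1 and highest in mouse 3. Farsa, the partner subunit of Farsb, had that order at its brightest probe, with a range of 0.10, and not at its 2 other probes above background. Those had means of 0.53, 0.54, 0.70 and 0.46 and of -1.63, -1.67, -1.68 and -1.68 in mice 1 to 4.

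Of the mitochondrial enzymes, Yars2 had the lowest p between mice. This tyrosine enzyme read 0.94, 1.13, 1.35 and 1.11 with the Y RNA siRNA, against 0.84, 1.22, 1.26 and 1.10 with the control siRNA (range of means 0.41, limma adjusted p = 0.095). Fars2, the single-subunit phenylalanine enzyme of the mitochondrion, ran the other way, at 3.51, 3.35, 3.27 and 3.49 with the Y RNA siRNA, against 3.49, 3.38, 3.28 and 3.57 with the control siRNA (range 0.25, 0.114). It was lowest in mouse 3. Iars2, for isoleucine, had a range of 0.25 (adjusted p = 0.134), Sars2, for serine, one of 0.21 (0.147), and Rars2, for arginine, one of 0.21 (0.204). Mouse 3 was the highest for each of these 3. Mars2 had the widest mitochondrial range, 0.74, with an adjusted p of 0.345, and its 2 arrays of mouse 2 lay apart, at -2.71 with the Y RNA siRNA and -1.96 with the control siRNA. At the other end Kars and Nars had a range of 0.07.

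The order of the mice also depended on the probe. In the 7 genes with at least 2 probes above background, mouse 1 was the lowest at 5 of the 7 brightest probes and at 0 of the 8 others, and mouse 3 was the highest at 6 of 7 and at 3 of 8. The counts over the synthetases are thus those of the brightest probes. With the mean of a gene's probes, mouse 1 was the lowest in 20 of 35 (31% of all genes) and mouse 3 the highest in 25 of 35 (27.4% of all genes). For Wars, the brighter probe had means of 4.16, 4.24, 4.30 and 4.26 in mice 1 to 4, with mouse 1 the lowest. The dimmer one, elsewhere in the gene, had means of -0.30, -0.56, -0.48 and -0.54, with mouse 1 the highest.

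**Figure D3:**
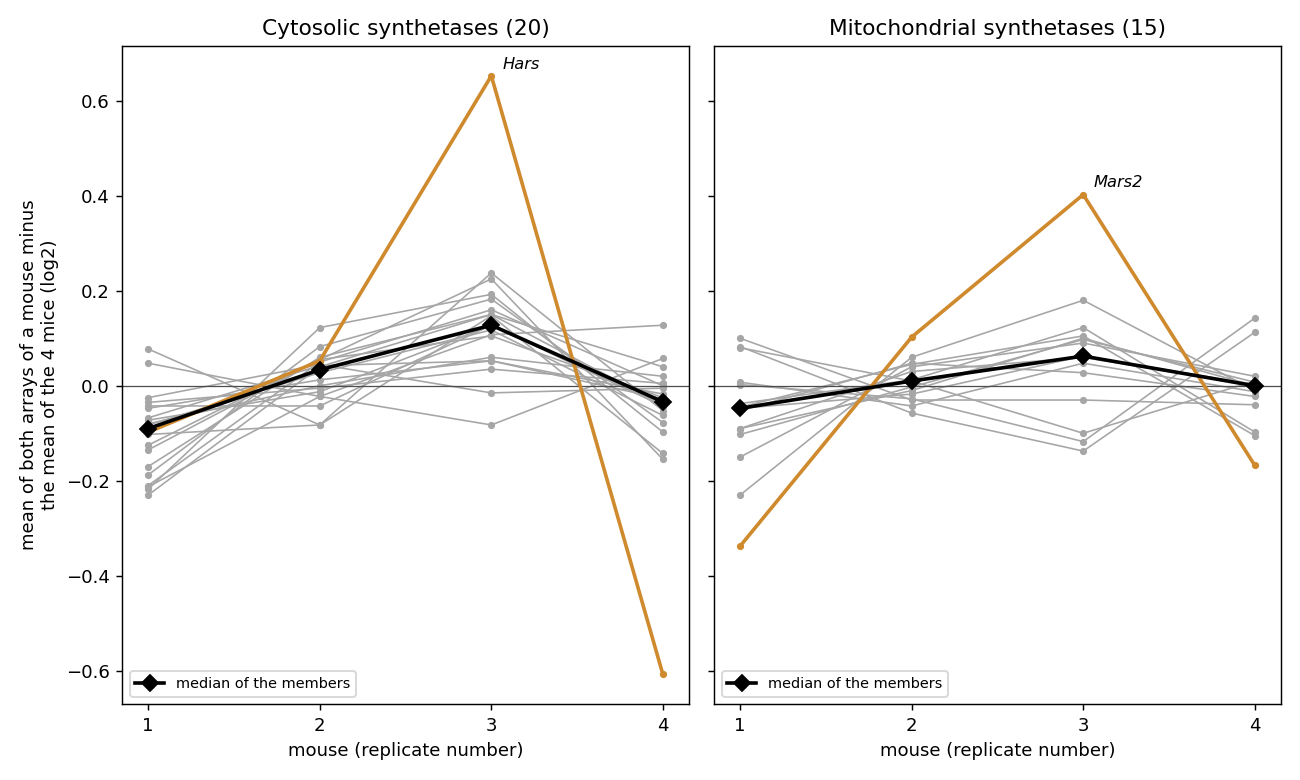
Deviation of each synthetase from its own mean by mouse. Each line is 1 gene, as the mean of both arrays of a mouse minus the mean of the 4 mice (vertical axis, log2), for 20 cytosolic genes on the left and 15 mitochondrial genes on the right; black diamonds are the median of the members and orange lines are Hars and Mars2. The medians lie lowest in mouse 1 and highest in mouse 3 in both panels, and the lines of Hars and Mars2 are the widest.

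The ATF4 motif was looked up in the promoters because many cytosolic synthetases are known ATF4 targets and because many members shared one order of the mice. RefSeq promoters of GRCm38.p6, from 250 bases before to 50 after the start, were on hand for 27 of the 36 genes (28 promoters). The 9 others were Cars, Hars, Hars2, Lars, Nars, Pars2, Rars, Vars and Wars. The core TTGCATCA, on either strand, was found in 4 of 13 cytosolic promoters (30.8%) and 0 of 15 mitochondrial promoters, against 0.895% of all 32851 promoters of the same length. The wider form TTNCATCA, which includes the core, was found in 5 of 13 cytosolic (38.5%) and 0 of 15 mitochondrial promoters, against 3.97% of all. The sites of Gars, Iars, Tars and Yars are printed below as examples, in the direction of the gene with the motif in capitals. The motif is placed by its first base, counted from the start of the gene with negative numbers before it. On GRCm38.p6 the 30-base windows lie at chr6:55037960-55037989 for Gars, chr13:49682126-49682155 for Iars, chr15:11399655-11399684 on the minus strand for Tars and chr4:129189895-129189924 for Yars.
Gars, motif from base -30: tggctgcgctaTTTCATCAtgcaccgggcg
Iars, motif from base 8: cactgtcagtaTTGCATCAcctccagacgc
Tars, motif from base -15: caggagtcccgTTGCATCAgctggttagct
Yars, motif from base 4, as its reverse complement: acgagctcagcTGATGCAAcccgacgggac

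In the wider context, the 250 bases before the start of Tars hold 1 copy of the core, at base -15.
Tars, chr15:11399659-11399908, minus strand: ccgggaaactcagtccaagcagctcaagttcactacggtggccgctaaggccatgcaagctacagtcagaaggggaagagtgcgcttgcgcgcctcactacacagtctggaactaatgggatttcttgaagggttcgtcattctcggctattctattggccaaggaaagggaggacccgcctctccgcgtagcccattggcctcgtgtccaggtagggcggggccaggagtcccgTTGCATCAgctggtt

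The genes with the motif had array values that overlapped those of the cytosolic genes without it, and a part of ATF4 was not tested. With the motif, log2 fold changes between Y RNA siRNA and control siRNA ran from -0.07 to 0.08. In the 8 cytosolic genes with a promoter on hand and no match they ran from -0.05 to 0.09. Ranges between mice were 0.18 to 0.37 with the motif and 0.07 to 0.41 without it. Mouse 3 was the highest in 5 of 5 genes with the motif and in 7 of 8 without it. Mouse 1 was the lowest in 4 of 5 and in 7 of 8. In the 13 mitochondrial genes that had a promoter on hand and were tested, mouse 3 was the highest in 10 and mouse 1 the lowest in 8.

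Genes that work beside the synthetases gave the same picture for the siRNA. The limma test called 0 of the 13 synthetase partners, 0 of 30 genes that make and process transfer RNA, 0 of 18 elongation and initiation genes, 0 of 56 mitochondrial ribosome genes and 0 of 30 ATF4 targets outside the synthetases. At an unadjusted p under 0.05 the counts were 0 in the first 4 lists and 1 in the last, against 3.35% of all genes. With the mouse as a block, they were 1 of 30 transfer RNA genes (Ang) and 3 of 30 ATF4 targets (Ddit3, Atf3 and Phgdh). They were then 0 in the other lists, and the share over all genes was 9.02%. No gene of these lists passed the adjusted threshold with that block. The medians of the log2 fold change were 0.05 for the partners, -0.01 for the transfer RNA genes, 0.01 for the elongation genes, 0.01 for the mitochondrial ribosome and 0.05 for the ATF4 targets, beside 0.01 for all genes. Higher signals with the Y RNA siRNA were found in 10 of 13, 13 of 30, 11 of 18, 35 of 56 and 19 of 30 of them.

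Gatb and Gatc, which belong to the amidotransferase that makes glutaminyl-tRNA in the mitochondrion, gave opposite signs. Gatc read -0.34, -0.40, -0.35 and -0.44 with the Y RNA siRNA, against -0.38, -0.46, -0.51 and -0.47 with the control siRNA (log2 fold change 0.07 ± 0.05, SE). Gatb read 1.50, 1.60, 1.61 and 1.58 with the Y RNA siRNA, against 1.51, 1.73, 1.67 and 1.64 with the control siRNA (-0.07 ± 0.06, SE). Each kept its sign in the 4 mice, as did 19% of all genes, and neither passed the test. In the fit without the mouse block, the ATF4 target with an unadjusted p under 0.05 was Ddit3, the stress transcription factor CHOP. It read 2.26, 2.43, 2.55 and 2.50 with the Y RNA siRNA, against 2.15, 2.29, 2.28 and 2.31 with the control siRNA (log2 fold change 0.18 ± 0.08, limma's unadjusted p = 0.0489, adjusted p = 1). Its pairs were higher in the 4 mice, but the groups overlapped. Atf3, another stress factor, gave -0.21 ± 0.14 and was lower in the 4 mice. Of the 30 ATF4 targets, 6 kept 1 sign in the 4 mice, beside the 19% of all genes.

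Between mice, the F test called 0 of 13 partners, 0 of 30 transfer RNA genes, 0 of 18 elongation genes, 0 of 56 mitochondrial ribosome genes and 1 of 30 ATF4 targets (3.33%), beside 4.64% of all genes. That target was Herpud1, a gene of the endoplasmic reticulum stress response, with means of 3.84, 3.37, 3.23 and 3.49 in mice 1 to 4 (limma adjusted p = 0.0397). It was highest in mouse 1, opposite to most synthetases. The scaffold Aimp2 had means of 3.50, 3.86, 4.01 and 3.75 (adjusted p = 0.0727), and Tarsl2, a gene related to Tars, had means of 0.39, 0.88, 1.00 and 0.93 (0.0578). Phgdh, an enzyme of serine synthesis, had means of 0.14, 1.44, 1.65 and 1.21 (0.0641), and Mthfd2, of mitochondrial folate metabolism, had -0.50, 0.24, 0.41 and -0.23 (0.0598). These 4 were lowest in mouse 1 and highest in mouse 3.

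By list, the mean deviations in mice 1 to 4 were -0.09, 0.02, 0.07 and 0.00 for the partners and -0.07, 0.01, 0.05 and 0.00 for the mitochondrial ribosome. For the transfer RNA genes they were -0.04, 0.03, 0.03 and -0.01, and for the ATF4 targets -0.18, 0.08, 0.12 and -0.01. Mouse 1 was the lowest in 38 of 56 mitochondrial ribosome genes and mouse 3 the highest in 31 of 56. For the elongation genes the mean deviations were -0.04, -0.02, 0.06 and -0.01. Mouse 1 was also the lowest and mouse 3 the highest in the list means of the partners, the elongation genes, the mitochondrial ribosome and the ATF4 targets. That order did not hold in all their genes. Of the 30 ATF4 targets, mouse 3 was the highest in 16 and the lowest in 10. Of the 30 transfer RNA genes, mouse 1 was the lowest in 16 and the highest in 11.

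Markers of neutrophils and dendritic cells, and the erythroid and megakaryocyte markers, had list means that were lowest in mouse 1 and highest in mouse 3. Not all their genes had that order. Mouse 1 was the lowest in 4 of 5 neutrophil, 2 of 3 dendritic cell and 2 of 3 erythroid and megakaryocyte markers. Mouse 3 was the highest in 4 of 5, 2 of 3 and 1 of 3. Camp and Epor were lowest in mouse 3, and Siglech was highest in mouse 1. The 5 of 10 neutrophil markers above background had mean deviations of -0.68, 0.11, 0.44 and 0.13 in mice 1 to 4, with Mpo and S100a8 called by the F test and Ly6g, Ltf, Ngp, Retnlg and Cxcr2 not above background. The 3 of 8 dendritic cell markers had -0.74, -0.04, 0.74 and 0.03, with Itgax called at means of 0.48, 2.13, 2.93 and 2.10, and with Flt3, Zbtb46, Xcr1, Clec9a and Cd209a not above background. The 7 of 9 fibroblast markers had -1.06, 0.10, 0.33 and 0.62, with Col1a1 called and Lum and Pdgfra not above background. The fibroblast list was highest in mouse 4. The 3 of 9 erythroid and megakaryocyte markers had -0.35, 0.09, 0.28 and -0.01, and the 4 of 10 lymphocyte markers had 0.12, -0.14, -0.06 and 0.08. The macrophage markers ran the other way, at 0.07, 0.01, -0.10 and 0.02, with Cd14 and Lyz2 called and both highest in mouse 1. The part of these lists, and of the low 75th percentile of mouse 1, in the order of the synthetases was not tested.

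**Figure D4:**
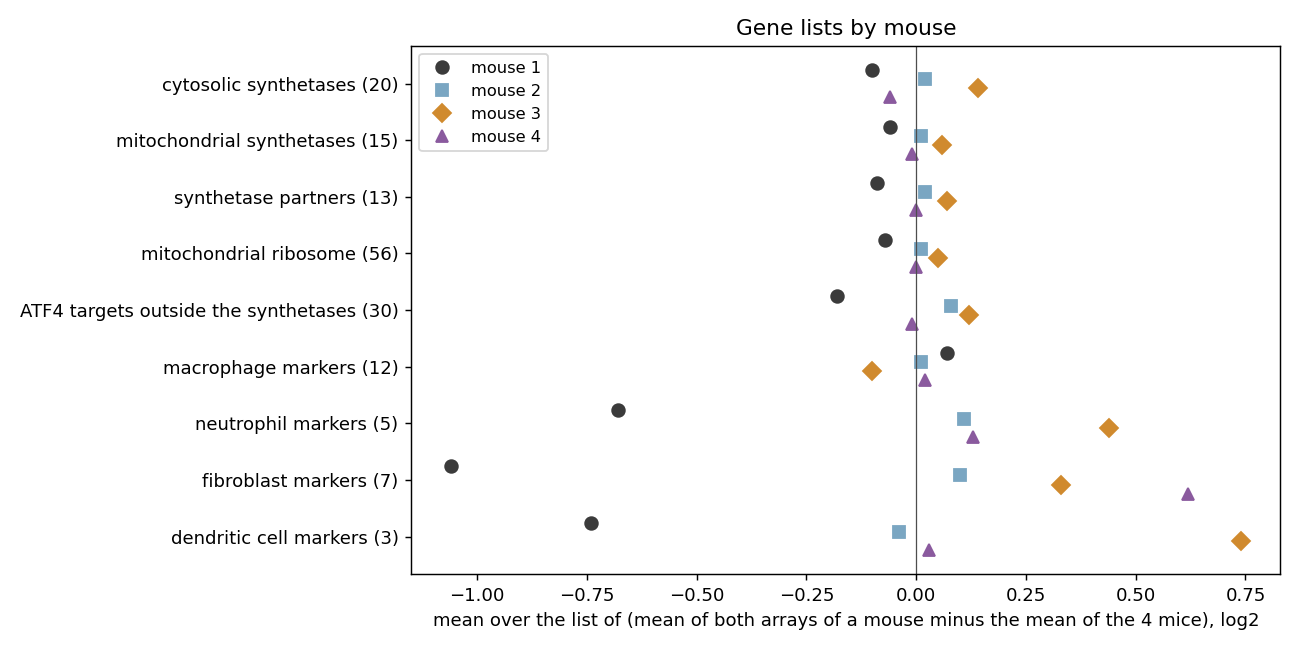
Mean deviation of gene lists by mouse. Each symbol is 1 mouse, placed at the mean over the list of its deviation from the mean of the 4 mice (horizontal axis, log2; the number of genes above background is in brackets). Mouse 1 lies at the low end and mouse 3 at or near the high end of the lists of the synthetases, partners, mitochondrial ribosome, ATF4 targets, neutrophils and dendritic cells, fibroblast markers are highest in mouse 4, and the macrophage markers run the other way.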

How the data were processed

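RNA (0.2 µg per sample, per the labels) was hybridised in 1 colour. The deposited scanner files hold linear intensity values per spot, background-subtracted and detrended by Agilent Feature Extraction 10.7.3.1, per the file headers, with no normalization between arrays. The authors' deposited table of log2 values, for which the sources used here give no method, centring or scaling, served as an alternative. Its columns have medians of 6.26 to 6.27 and a correlation of at least 0.9998 with that array's raw median signal on a log2 scale.

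Of 62976 spots, 3671 controls were left out, and outlier spots (185 to 234 per array) were set missing. Values are log2 processed signal minus the 75th percentile of the array, averaged per probe. Of all 55681 probes, kept or not, 26762 matched a RefSeq accession (GRCm38.p6). The others kept the name in the scanner files, so the counts of all genes are counts of distinct names. Probes were kept where 4 or more of 8 arrays had them well above background (26820 of 55681). The brightest kept probe gave each gene.

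Tests used limma 3.58.1 in R 4.3.3 (lmFit, eBayes, two-sided, Benjamini-Hochberg over 19286 genes), first tested on simulated data. Arrays of the same number correlated at 0.618, 0.155, 0.58 and 0.285 in their deviations from the group means, so the numbers were taken to pair the arrays. The labels say that 4 mice were used, and p-values measure the spread between these samples. Named genes were those with the lowest p of either test, plus a set kept in any case. The members, lists and tests were chosen with earlier results of these data known. The number of arrays limits the precision. Part of the promoter sequence searched is not reported here.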

Additional observations from a re-analysis of the deposited data

Results flagged for a closer look

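In 2 of 70 groups of 4 arrays, 1 array of a synthetase gene lay far from the other 3 of its group (Dixon's gap over range). Chance gives about 1 in 20 such groups. Cars read 3.83 in control replicate 1, with the nearest other control array at 4.17 and the farthest at 4.22. Iars, the cytosolic isoleucine enzyme, read 3.30 in control replicate 1, with the nearest other control array at 3.61 and the farthest at 3.64. Both genes were also lowest in mouse 1 among the Y RNA siRNA arrays, at 3.83 for Cars and 3.30 for Iars.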

How the results depend on the processing

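Under 22 alternative settings (scaling, background correction, filter on dim probes, choice of probe, the deposited table, slide row, mouse block, arrays or mice left out), 0 of 770 synthetase values for the siRNA passed the threshold. Of the 770, 687 kept their sign (89.2%) and 14 of 35 genes kept it throughout, so single signs carry little. The changes of the filter on dim probes and the fixed, random and slide row blocks gave the same member estimates as the main fit. Their values are among the 770, and no sign could change there. With the replicate block as a fixed term, 0 genes in all were called and the medians, which such a block cannot move, were 0.01418 (cytosolic) and -0.0265 (mitochondrial). With arrays left out they ran from -0.02804 to 0.0674 (cytosolic; -0.02804 without control replicate 1, 0.0674 without control replicate 3) and from -0.05144 to -0.007087 (mitochondrial). The random replicate block called 11 genes, none of them a synthetase. Scaling moved the median of all genes to at most 0.036.

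The calls between mice depended on the settings. Over all genes they were 3362 with normexp background, 172 with no filter and 1894 in the deposited table, and 2 (without both arrays of mouse 1) to 1148 (without both of mouse 2) with arrays left out. Called synthetases numbered 5 with normexp (Aars, Farsb, Hars, Lars, Yars2), 4 in the deposited table (Aars, Hars, Lars, Yars2), 2 with probes above background on 8 arrays (Hars, Lars), 0 with no filter, and 0 to 1 with arrays left out. The adjusted p of Hars was 0.0544 with no filter and 0.0218 to 0.158 with arrays left out. The cause was not tested. The order of the mice under each scaling and with the mean of probes was added after seeing the data.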
